A study of Mus musculus with 24 samples.

Results

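D430019H16Rik, 1700047G03Rik and Mrgprg are 3 mouse genes with little known function, 3 of 56895 genes measured by RNA-seq in retroperitoneal white adipose tissue. They were chosen by name, because large differences between the high-fat (HF) and low-fat (LF) diets had been seen for each of them in these same libraries. Their HF and LF values are therefore given as a description, with no test. The tissue came from 24 mice, C57BL/6J by the labels and C57BL/6JRJ by the study's methods, with 3 mice in each of 8 groups that combine the mother's diet, the diet of the offspring and sex. Mothers received AIN-93G with vitamin D3 at 1.0 IU/g (CTRL) or without it, 0.0 IU/g (VDD), for 8 weeks before mating and, by the study's account, through gestation, and all mothers received the control diet from birth to weaning. Male and female offspring were given AIN-93M (LF) or a DIO diet with 45% of its energy from fat (HF) from the age of 6 weeks, again for 8 weeks. Mice are named here by group and by the number in the deposited tables, and the sources used here give neither litter nor library batch.

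D430019H16Rik is annotated as protein coding, and its name is that of a RIKEN cDNA clone. 1700047G03Rik is annotated as a long intergenic non-coding RNA, a transcript that is not translated into a known protein, and its RIKEN clone name belongs to a series made from mouse testis. Mrgprg encodes an orphan member of the Mas-related G protein-coupled receptors, a family best known from sensory neurons, where some members detect itch-causing substances, and from mast cells, where Mrgprb2 triggers the release of granules. White adipose tissue stores fat in adipocytes and enlarges under a fat-rich diet, and it also holds stromal, immune, vascular and nerve cells, so that reads from a whole depot are a sum over these cells. In such bulk samples fewer cells of a type and less RNA per cell cannot be told apart.

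The 3 genes lie on different chromosomes. On build GRCm38 (mm10), D430019H16Rik spans chr12:105453856-105493095 on the plus strand, with 1 transcript of 2 exons. 1700047G03Rik spans chr15:11964276-11970086 on the plus strand, with 6 transcripts and 16 distinct exons. Mrgprg spans chr7:143763710-143766993 on the minus strand, with 2 transcripts and 3 exons. The starts of the transcripts are shown because D430019H16Rik and 1700047G03Rik had similar levels across the mice, and the letters before their starts can be compared directly. Each sequence has 300 bases, from 250 before to 50 after the RefSeq start, 5′ to 3′ on the strand of the gene, from RefSeq on GRCm38.p6, at chr12:105453606-105453905, chr15:11966812-11967111 and chr7:143766944-143767243. Capitals mark the motifs found.
D430019H16Rik: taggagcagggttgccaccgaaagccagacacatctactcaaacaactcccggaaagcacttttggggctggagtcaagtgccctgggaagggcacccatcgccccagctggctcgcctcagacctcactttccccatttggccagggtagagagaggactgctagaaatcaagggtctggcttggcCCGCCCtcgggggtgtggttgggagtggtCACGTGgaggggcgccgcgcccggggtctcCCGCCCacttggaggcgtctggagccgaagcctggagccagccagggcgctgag
1700047G03Rik: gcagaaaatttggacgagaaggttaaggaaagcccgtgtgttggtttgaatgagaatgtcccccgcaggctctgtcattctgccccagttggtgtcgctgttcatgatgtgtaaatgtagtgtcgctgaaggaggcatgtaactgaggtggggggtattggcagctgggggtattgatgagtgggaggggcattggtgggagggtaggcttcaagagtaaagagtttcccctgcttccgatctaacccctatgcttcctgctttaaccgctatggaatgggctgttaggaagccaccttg
Mrgprg: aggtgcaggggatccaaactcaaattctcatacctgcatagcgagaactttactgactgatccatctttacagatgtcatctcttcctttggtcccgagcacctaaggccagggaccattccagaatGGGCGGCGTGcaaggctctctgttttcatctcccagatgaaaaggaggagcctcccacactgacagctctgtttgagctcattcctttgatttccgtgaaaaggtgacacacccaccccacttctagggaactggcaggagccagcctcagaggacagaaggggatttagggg

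Of 7 short motifs searched on both strands, D430019H16Rik holds the GC box (GGGCGG, here as CCGCCC) with its first base at -63 and again at -4 from the start, and the E-box (CACGTG) at -34. The E-box was present in 7.15% and the GC box in 35.7% of 32851 promoters of the same length. Mrgprg holds a GC box (GGGCGG) at -123 that overlaps the core of the xenobiotic response element (GCGTG) at -118, a core present in 32.4% of promoters. The stretch of 1700047G03Rik holds none of the 7, the others being TATAAA (13.6% of promoters), AGGTCA (16.3%), AGAACA (19%) and TTGCNNAA (10.8%). The stretch of D430019H16Rik has 64.3% G and C, against 51.7% for each of the other two and a median of 52.7% over all promoters. D430019H16Rik and 1700047G03Rik thus share none of these motifs. For 1700047G03Rik the RefSeq start lies 2786 bases downstream of the first start in GENCODE, so the window printed is 1 of several that the gene could have. These matches describe letters in a window and are not measured binding sites.

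Each library held 13346779 to 18484346 reads on genes, and all 24 libraries matched their labelled sex. All 9 adipocyte markers had at least 10 normalized reads in every mouse. Levels below are normalized reads, scaled over the 24 libraries by the median of ratios, and each log2 difference comes from the deposited table that holds its 2 groups. Markers of other tissues differed between mice. The 6 skeletal muscle markers summed to between 95.5 and 837840 normalized reads, with the highest value in a VDD LF male. In the VDD LF females the 6 kidney markers reached 7063 in 1 mouse and at most 109 in the others. The names of 6 libraries contain renal, a term that no source used here explains. D430019H16Rik, 1700047G03Rik and Mrgprg passed the filter on low values (10 or more normalized reads in 3 or more of 6 libraries) in each of the 8 comparisons of 2 groups.

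D430019H16Rik was highest in males on the HF diet. In CTRL LF males it had 54.0, 31.2 and 62.7 normalized reads, and in CTRL HF males 364, 590 and 353. Every CTRL HF male stood above every CTRL LF male. The difference was 3.12 on the log2 scale (SE 0.31, n = 3 mice per group), 8.71-fold. In VDD LF males the values were 5.12, 48.5 and 11.7, and in VDD HF males 749, 704 and 531. The groups again did not overlap, and the log2 difference was 5.38 (SE 0.73), 41.8-fold. The lowest of these males, 2078, held 4 reads of the gene, and without it the log2 difference was 4.71. These contrasts chose the genes, so nothing is read from the background, which is given once here: HF males stood above LF males without overlap for 13.0% of tested genes and below for 11.7% with CTRL mothers, these shares were 17.0% and 16.5% with VDD mothers, and limma called 0.0578% and 0.0752% of genes in these 2 comparisons at an adjusted p under 0.01 and a fold above 1.5 or below 0.66.

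In females D430019H16Rik reached lower levels under HF. CTRL LF females had 16.8, 32.8 and 25 normalized reads, and CTRL HF females 192, 286 and 105. These groups did not overlap, as was so for 16.9% of tested genes in that direction and 18.2% in the other, and the log2 difference was 2.83 (SE 0.41). VDD LF females had 21.3, 19.9 and 26.3, and VDD HF females 41.1, 12.7 and 205. Here the groups overlapped: mouse 2121 stood far above and mouse 2083 below every LF female, and the log2 difference was 1.07 (SE 0.90). Without mouse 2121 it was 0.05 and without mouse 2083 it was 1.99. In this comparison 5.55% of tested genes were higher and 6.06% lower in every HF mouse. Several marker lists moved with the diet in CTRL females as well. The 9 adipocyte markers summed to 759660 to 830300 normalized reads in CTRL LF and 548790 to 607070 in CTRL HF females, and the 8 stromal progenitor markers to 21890 to 27270 and 40365 to 44288. Their part in the values of D430019H16Rik was not tested.

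Ordered by mean log2 level, D430019H16Rik stood at 661 ± 115 normalized reads in VDD HF males (SD, n = 3) and 436 ± 134 in CTRL HF males, ranges that overlapped. CTRL HF females followed at 194 ± 90.6, with no overlap with the CTRL HF males. The next groups were VDD HF females (86.2 ± 104), CTRL LF males (49.3 ± 16.3), CTRL LF females (24.9 ± 7.99), VDD LF females (22.5 ± 3.37) and VDD LF males (21.8 ± 23.4). From CTRL HF females downwards each group overlapped the next one.

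**Figure D1:**
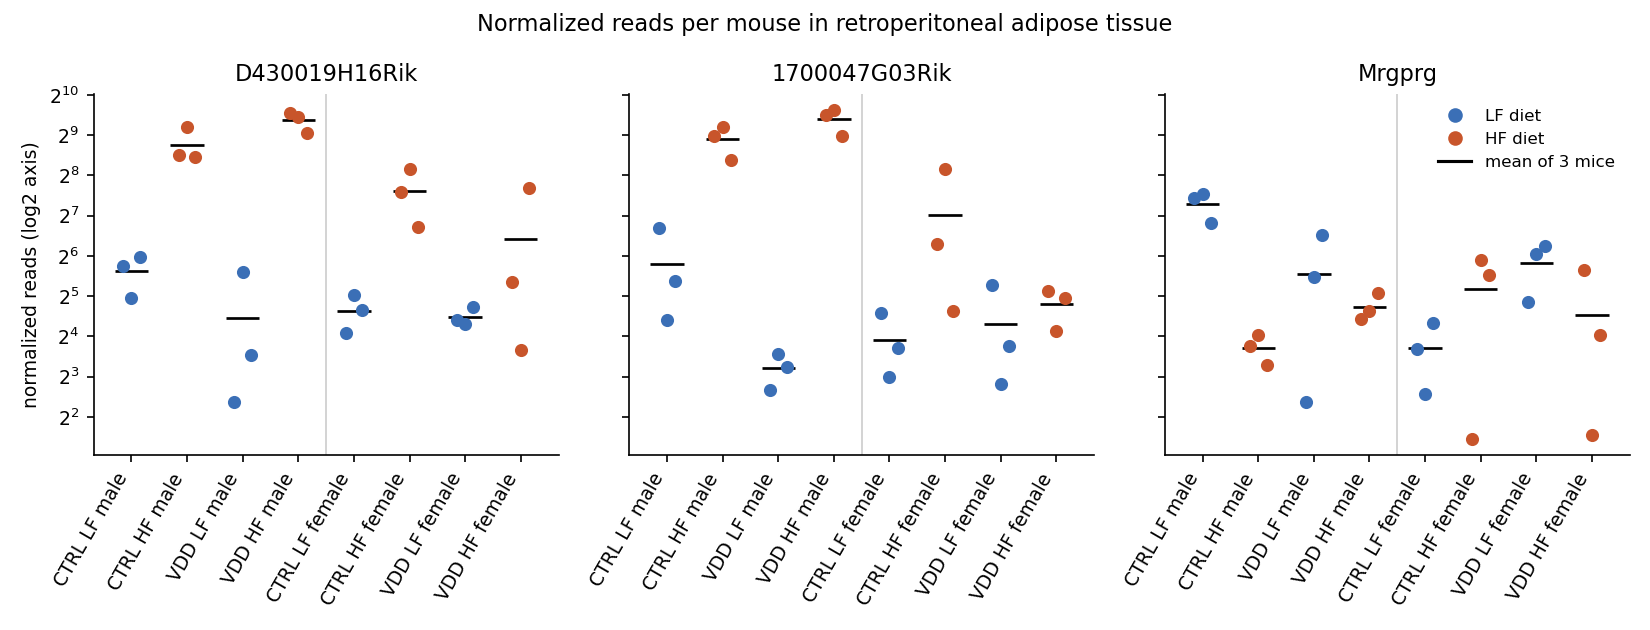
Normalized reads of D430019H16Rik, 1700047G03Rik and Mrgprg in each of 24 mice, on a log2 axis, for the 8 groups of 3 mice. Points are mice, coloured by the diet of the offspring, and lines are group means. All HF males stand at 353 or more for D430019H16Rik and 336 or more for 1700047G03Rik, while Mrgprg is highest in the CTRL LF males (113 to 186).

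1700047G03Rik showed a like order of groups. CTRL LF males had 104, 21.2 and 41.8 normalized reads and CTRL HF males 507, 592 and 336, a log2 difference of 3.32 (SE 0.48) with no overlap. VDD LF males had 6.41, 11.9 and 9.36, and VDD HF males 723, 791 and 503. The log2 difference between these groups was 6.05 (SE 0.30), 66.3-fold, and the 3 LF values rested on 5 to 12 reads each. This was the largest of the 12 differences between HF and LF of the 3 genes.

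CTRL LF females had 24.1, 7.96 and 13.1 normalized reads of 1700047G03Rik, and CTRL HF females 78.7, 284 and 24.9. The HF values were all above the LF values, the nearest by less than 1 normalized read, and the log2 difference was 2.50 (SE 0.83), or 1.605 without mouse 2291. VDD LF females had 38.8, 7.04 and 13.6, and VDD HF females 34.7, 17.6 and 30.9. These groups overlapped, and the log2 difference was 0.73 (SE 0.64), or 0.20 without mouse 2311 and 1.35 without mouse 2303. HF males of both maternal diets (672 ± 151 for VDD and 479 ± 131 for CTRL, SD, n = 3 each) overlapped each other and no other group. Below them each group overlapped the next, from CTRL HF females (129 ± 137) to VDD LF males (9.22 ± 2.74).

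**Figure D2:**
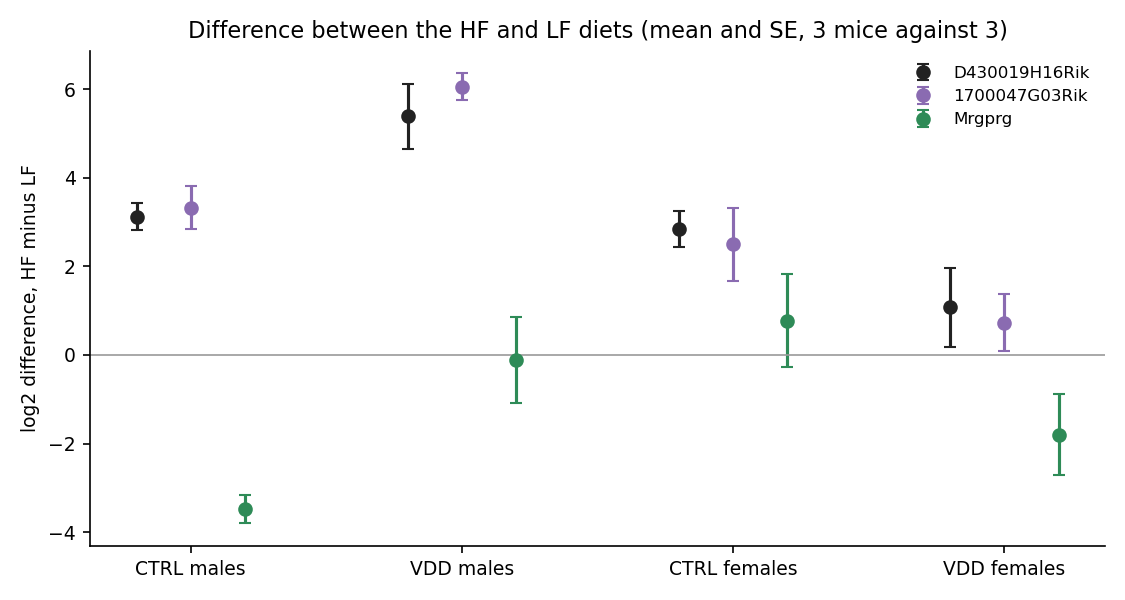
Log2 difference between HF and LF (HF minus LF, mean and SE, 3 mice against 3) for the 3 genes in CTRL males, VDD males, CTRL females and VDD females. D430019H16Rik and 1700047G03Rik lie above 0 in all 4, between 0.73 and 6.05, and Mrgprg lies at -3.48 in CTRL males and within 1 SE of 0 in VDD males and CTRL females.

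Per length, 1700047G03Rik was the more abundant of the pair. In VDD HF males the mean level was 450 normalized reads per kb of exon for 1700047G03Rik (1493 exon bases) and 114 for D430019H16Rik (5786 exon bases), and 13.4 for Mrgprg (1990 exon bases). In CTRL LF males the order was different, with levels of 78.9 per kb for Mrgprg, 37.2 for 1700047G03Rik and 8.52 for D430019H16Rik. The germ cell markers of testis, the organ of the clone series of 1700047G03Rik, were near 0 in this tissue. Prm1 was at 0 in all 24 libraries, and the 8 germ cell markers together summed to at most 11.9 normalized reads.

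The neighbours of 1700047G03Rik were examined because its nearest protein-coding gene upstream is Npr3, the clearance receptor that removes natriuretic peptides, hormones that can stimulate fat breakdown in adipocytes. Npr3 lies 56989 bases from it on the opposite strand, at chr15:11839896-11907287. In VDD LF males Npr3 had 1358, 2389 and 1383 normalized reads, and in VDD HF males 20038, 17460 and 19918. It rose in VDD HF males by 3.53 on the log2 scale (limma adjusted p = 0.00742). In CTRL males the difference was 1.16 (limma adjusted p = 0.106), in CTRL females 1.73 (limma adjusted p = 0.0378) and in VDD females 0.81 (limma adjusted p = 0.837). In 3 of these 4 comparisons, all but VDD females, the diets did not overlap. Every HF mouse was higher for 17.0% of tested genes in VDD males, 13.0% in CTRL males and 16.9% in CTRL females. Npr3 was examined after 1700047G03Rik had been chosen on the same libraries, so its values are not independent of that choice.

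Across the 24 libraries the log2 level of 1700047G03Rik correlated with that of Npr3 at r = 0.95 (rho 0.93), the second highest of 18398 genes. The deviations from the 8 group means correlated at 0.72, so the likeness held within groups as well. This was not particular to the neighbour. The other genes with the highest r, named below, had 0.67 (Tfpi2), 0.67 (Cavin1), 0.69 (Anxa2) and 0.60 (Syp), and Rgs2, with the lowest r, had -0.75. The points share library, diet and sex, and these values are descriptions. Gm5144, a non-coding RNA that starts beside Npr3 on the other strand, had a log2 difference of 2.49 in VDD males (limma adjusted p = 0.0212), 0.88 in CTRL males (limma adjusted p = 0.270), 1.03 in CTRL females (limma adjusted p = 0.117) and 0.13 in VDD females (limma adjusted p = 0.981). On the other side, Sub1, a transcriptional coactivator 11253 bases away, differed between diets by -0.47 to 0.09 on the log2 scale in the 4 comparisons, with none called. In CTRL males every HF value of Sub1 lay below every LF value, as was so for 11.7% of tested genes. At most 0.0752% of all tested genes were called in any of these comparisons, so the lack of a call says little. The small RNA Gm24074 lies inside 1700047G03Rik on the same strand, had at most 22.6 normalized reads and was at 0 in 9 libraries. The library kit keeps strand, but no source used here states the strand setting of the read counting, and reads shared by Gm24074 and 1700047G03Rik cannot be told apart.

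**Figure D3:**
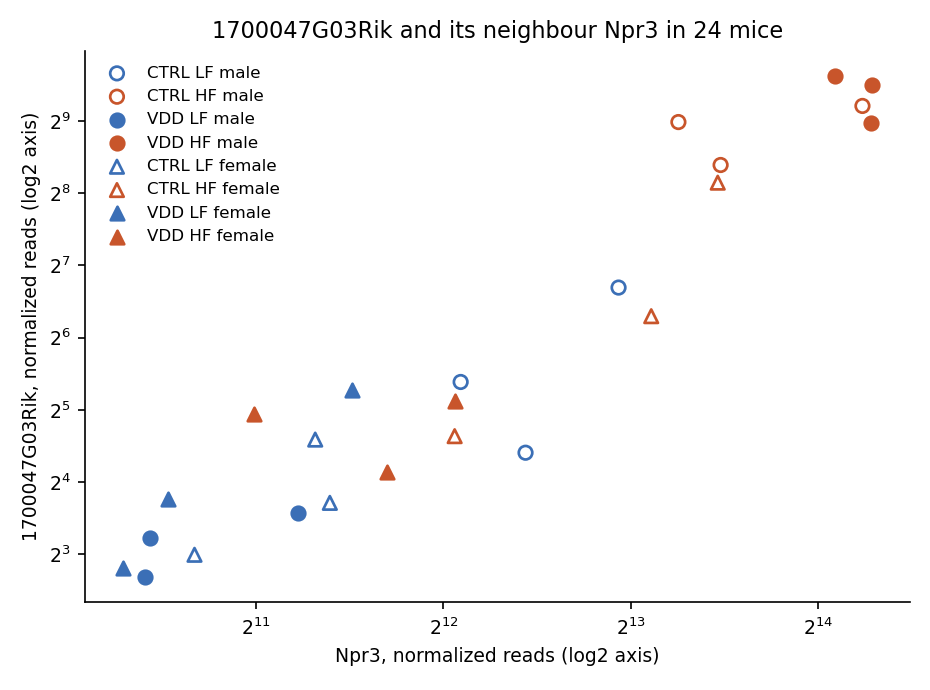
Normalized reads of 1700047G03Rik against its neighbour Npr3 in 24 mice, both on log2 axes, with circles for males, triangles for females, blue for LF, orange for HF, open symbols for CTRL and filled symbols for VDD. The 6 HF males lie at the upper right (Npr3 9775 or more), a level of Npr3 also passed by CTRL HF female 2291 (11307). The 3 VDD LF males lie at the lower left (Npr3 1358 to 2389), in an area shared with LF females (Npr3 1249 to 2924).

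The neighbourhood of D430019H16Rik held few other transcripts. The lincRNA genes Gm46376 and Gm47796 and the protein-coding gene Tunar were at 0 in all 24 libraries, and AU015791, 20385 bases away, had at most 3.39 normalized reads. Bdkrb2, the bradykinin B2 receptor and the nearest protein-coding gene downstream at 70131 bases, had 5.14 to 35.9 normalized reads. It differed between diets by -1.29 to 0.22 on the log2 scale, with none of the 4 comparisons called. As at most 0.0752% of all tested genes were called in any of them, no lack of response is read from this.

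Mrgprg went the other way in males born to CTRL mothers. CTRL LF males had 172, 186 and 113 normalized reads, and CTRL HF males 13.4, 16.3 and 9.83. All HF values lay below all LF values, as was so for 11.7% of tested genes, and the log2 difference was -3.48 (SE 0.32), 11.1-fold lower under HF. In VDD males no such gap was seen. VDD LF males had 5.12, 44.6 and 91.3, and VDD HF males 21.5, 24.6 and 33.7. The LF values stood on both sides of the HF values, and the log2 difference was -0.12 (SE 0.97), which moved to -1.25 without mouse 2078 and to 0.69 without mouse 2310. The 7 mast cell markers overlapped between the diets in CTRL males and summed to 1150 to 2136 normalized reads under LF and 921 to 1858 under HF.

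Females showed no gap between diets for Mrgprg. CTRL LF females had 12.8, 5.97 and 20.2 normalized reads, and CTRL HF females 2.74, 59.4 and 46.4. Mouse 2290 lay below and the other 2 HF mice above every LF mouse, with a log2 difference of 0.77 (SE 1.04), or 2.07 without mouse 2290 and 0.03 without mouse 2291. VDD LF females had 28.8, 65.7 and 75.8, and VDD HF females 50.1, 2.94 and 16.5. These groups overlapped through mouse 2081, and the log2 difference was -1.80 (SE 0.91), or -0.84 without mouse 2083. The lowest values, in mice 2290 and 2083, rested on 4 and 3 reads. CTRL LF males (157 ± 38.9, SD, n = 3) stood above every other group with no overlap, followed by VDD LF females at 56.8 ± 24.7, and every later group in the order overlapped the next, down to CTRL LF females at 13.0 ± 7.14.

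The Mas-related receptor family has 21 genes in the tables, of which 9 were at 0 in all 24 libraries. Over the 24 libraries 15 genes did not pass the filter, among them Mrgprh with at most 18.7 normalized reads, and 6 passed it: Mrgprg, Mrgpre, Mrgprf, Mrgprb1, Mrgprb2 and Mrgprx2. Apart from Mrgprg, 3 to 5 of them could be tested in each comparison of 2 groups, and limma called 0 of them in any of the 8, with 8 of the 34 tests (23.5%) at an unadjusted p under 0.05, against 15.0% of the 128011 tests of all genes in the 8 comparisons. In CTRL females 3 of the 4 tested for HF against LF were among these 8. In that comparison 4762 of all 16563 tested genes were also under 0.05, so nothing is read from this count. By limma-voom, run for the 4 maternal comparisons, 0 genes of any kind were called. The median log2 difference of those tested was -0.78 in CTRL males, 0.28 in VDD males, 1.04 in CTRL females and -0.16 in VDD females for HF against LF, where the median over all tested genes was -0.02, 0.01, 0.01 and -0.01. A gene that passes the filter through 1 group only is not a neutral draw, and nothing is read from these medians.

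Mrgpre, the receptor gene next to Mrgprg at 11370 bases on the same strand, did not show the fall of Mrgprg in CTRL males. There the level of Mrgpre was 44.5 ± 12.3 under LF and 51.1 ± 2.7 under HF (SD, n = 3), a log2 difference of 0.22 (limma adjusted p = 0.722). In VDD males every HF mouse was higher for Mrgpre (1.05), as was so for 17.0% of tested genes. Between maternal diets every VDD mouse was higher for Mrgpre in HF males (0.15), as for Mrgprg, and lower in LF females (-0.46), unlike Mrgprg. Of tested genes 5.04% and 9.74% stood apart in these directions. The other neighbours of Mrgprg were Gm44998, at 0 in all 24 libraries, Osbpl5 (6725 bases) and Tnfrsf23 (77838 bases). Osbpl5 differed between diets by 0.04 to 0.39 on the log2 scale. It was higher in every HF mouse in CTRL males (0.34) and CTRL females (0.39), as was so for 13.0% and 16.9% of tested genes. In VDD males and VDD females Osbpl5 overlapped between diets. Tnfrsf23 was higher in every HF mouse in CTRL males (0.86), VDD males (1.41) and VDD females (0.52), but not in CTRL females (-0.11). Every HF mouse was higher for 13.0%, 17.0% and 5.55% of tested genes in the comparisons first named for Tnfrsf23, in that order. Mrgprf, a receptor found in smooth muscle, was highest in CTRL HF females at 191 ± 20.4, against 105 ± 35.0 in CTRL LF females (log2 difference 0.89, limma adjusted p = 0.0640). Mrgprb1, Mrgprb2 and Mrgprx2 were highest in CTRL LF males by mean, as Mrgprg was. Mrgprb1 had 86.9 ± 4.92 in CTRL LF and 58.4 ± 35.1 in CTRL HF males, and its log2 difference was -0.78 (limma adjusted p = 0.366). Genes of this family resemble each other in sequence, and reads with several positions were dropped before counting, so their levels are uncertain.

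**Figure D4:**
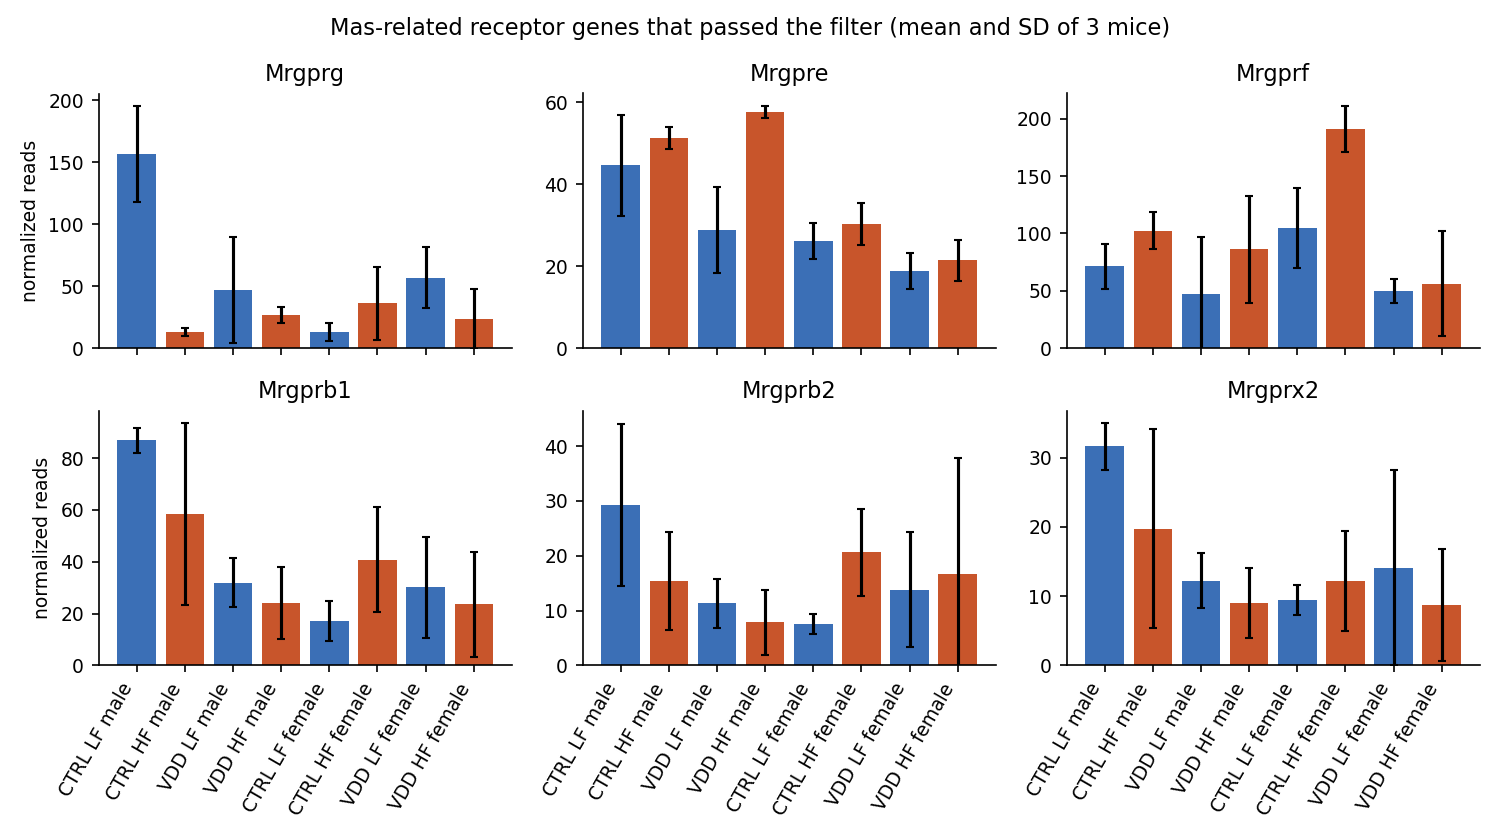
Mean normalized reads of the 6 Mas-related receptor genes that passed the filter, by group (error bars, SD of 3 mice, drawn from 0 upwards; blue LF, orange HF). The bar of Mrgprg in CTRL LF males stands at 157 against 13.2 in CTRL HF males, while Mrgpre stands at 44.5 and 51.1.

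The 9 sensory neuron markers summed to 107 to 287 normalized reads over the 24 mice and differed widely from one another. Trpv1, the capsaicin receptor gene, had 12.9 to 111 and the neuropeptide gene Calca 16.1 to 71.3, with reads of both, and of P2rx3 and Avil, in every library. Mrgprd, a receptor of the same family that defines a class of skin nociceptors, was at 0 in 23 libraries, the neuropeptide gene Tac1 was at 0 in 16, and the sodium channel gene Scn10a had at most 12.4. In CTRL LF males, where Mrgprg was highest, the sensory list summed to 107 to 131, and in CTRL HF males to 138 to 153. B lymphocyte markers were also highest in CTRL LF males, at 282 to 1376 against 107 to 507 in CTRL HF males, and their part in the values of Mrgprg was not tested.

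The sexes under HF are compared as a description, averaged over maternal diet in 1 fit over the 24 libraries, because the HF males also served to choose the genes. D430019H16Rik and 1700047G03Rik had lower values in HF females than in HF males. HF males ranged from 353 to 749 with a median of 560 for D430019H16Rik, and HF females from 12.7 to 286 with a median of 148, without overlap. The log2 difference, female minus male, was -2.48 (SE 0.51, n = 6 mice of each sex). For 1700047G03Rik HF males ranged from 336 to 791 with a median of 550, and HF females from 17.6 to 284 with a median of 32.8. These did not overlap either, with a log2 difference of -3.53 (SE 0.49). Mrgprg differed by -0.09 (SE 0.70), with 9.83 to 33.7 in HF males inside the range of 2.74 to 59.4 in HF females. Over all 18399 genes 3.49% were called in this contrast, and nothing is read from that share for the 3 genes. Markers of other tissues also differed between the sexes under HF. The 5 adrenal cortex markers summed to 401 to 32553 in CTRL HF and 71.6 to 18871 in VDD HF females. In CTRL HF and VDD HF males they reached at most 272 and 223. The 5 mammary epithelium markers had medians of 832 and 2012 in these females and 181 and 138 in these males. Their part in the values of the 3 genes was not tested.

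Under LF, in the same fit, the sexes are also compared as a description only. The LF males are the other side of the HF and LF contrasts that chose the genes. The log2 difference, female minus male, was -0.19 (SE 0.51) for D430019H16Rik and -1.37 (SE 0.70) for Mrgprg. For 1700047G03Rik it was -0.46 (SE 0.49), or -0.16 without mouse 2287 and -0.77 without mouse 2303. Here 2.23% of genes were called. LF males ranged from 5.12 to 186 normalized reads of Mrgprg, which covered the whole range of the LF females (5.97 to 75.8).

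The comparisons of VDD with CTRL mothers ask whether the diet of the mother is reflected in the adult tissue. None of the 3 genes was called in any of the 4 comparisons, in which limma called 0 genes of all those tested (0% in each). With a different test, the authors of the study reported differentially expressed genes in each of these comparisons. The absence of calls by limma is therefore not read as a lack of maternal effect. Why the tests differ was not tested. At an unadjusted p under 0.05 limma counted 1048 and limma-voom 1044 of 15438 tested genes for LF males. For HF males these counts were 850 and 742 of 16013. For LF females they were 1933 and 1891 of 16046, and for HF females 2752 and 2848 of 16480. A share of 0.05 would be counted with no difference at all, so these are not numbers of responding genes. Limma-voom also called 0 genes. In LF males the values of the VDD group were the lower ones for all 3 genes. The log2 difference, VDD minus CTRL, was -1.604 (SE 0.76, limma adjusted p = 0.753) for D430019H16Rik, where the groups overlapped through mouse 2302. For 1700047G03Rik it was -2.19 (SE 0.61, limma adjusted p = 0.641), and for Mrgprg -2.37 (SE 0.92, limma adjusted p = 0.691). Both groups of LF males also entered the HF and LF contrasts that chose the genes. These p-values, and the lack of overlap given below, are therefore not independent of that choice. The same holds for the maternal comparisons of the other groups. Without VDD LF male 2078 the value was -1.24 for Mrgprg and -0.93 for D430019H16Rik, and without mouse 2302 it was -2.43 for D430019H16Rik. For 1700047G03Rik and Mrgprg every VDD LF male lay below every CTRL LF male, as was so for 6.59% of tested genes, with 6.83% in the other direction. The 7 mast cell markers also stood apart there, with sums of 542 to 978 in VDD LF against 1150 to 2136 in CTRL LF males, and their part in the values of Mrgprg was not tested.

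In HF males the differences were smaller and positive. D430019H16Rik differed by 0.61 (SE 0.24, limma adjusted p = 0.940), 1700047G03Rik by 0.49 (SE 0.26, limma adjusted p = 0.956) and Mrgprg by 0.95 (SE 0.33, limma adjusted p = 0.940). Without mouse 2131 the value of 1700047G03Rik was 0.25. Only for Mrgprg, among the 3 genes, was every VDD HF male above every CTRL HF male, as was so for 5.04% of tested genes, with 5.25% in the other direction. In LF females Mrgprg was higher in every VDD than in every CTRL mouse, with a log2 difference of 2.07 (SE 0.53, limma adjusted p = 0.391). There 8.48% of tested genes had no overlap in that direction and 9.74% in the other. D430019H16Rik (-0.10, SE 0.33) and 1700047G03Rik (0.19, SE 0.66) had differences within their errors there, with limma adjusted p of 0.908 and 0.912. In HF females all 3 genes had overlapping groups (11.1% of tested genes were higher and 11.8% lower in every VDD mouse), with log2 differences of -1.86 (SE 0.94, limma adjusted p = 0.369) for D430019H16Rik, -1.58 (SE 0.83, limma adjusted p = 0.385) for 1700047G03Rik and -0.52 (SE 1.32, limma adjusted p = 0.877) for Mrgprg. Without mouse 2083 the value of D430019H16Rik was -0.94 and without mouse 2121 -2.90, and that of 1700047G03Rik was -0.69 without mouse 2291 and -2.44 without mouse 2292.

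Averaged over diet and sex, the log2 difference between maternal diets was -0.74 (SE 0.36, limma adjusted p = 0.227) for D430019H16Rik, -0.78 (SE 0.35, limma adjusted p = 0.188) for 1700047G03Rik and 0.03 (SE 0.50, limma adjusted p = 0.981) for Mrgprg, in a contrast where 0.103% of genes were called. The maternal and the HF comparisons share groups: the VDD LF males, which had the lowest levels of 1700047G03Rik, enter both the maternal difference of LF males and the HF difference of VDD males, and these values are therefore given side by side and not compared.

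**Figure D5:**
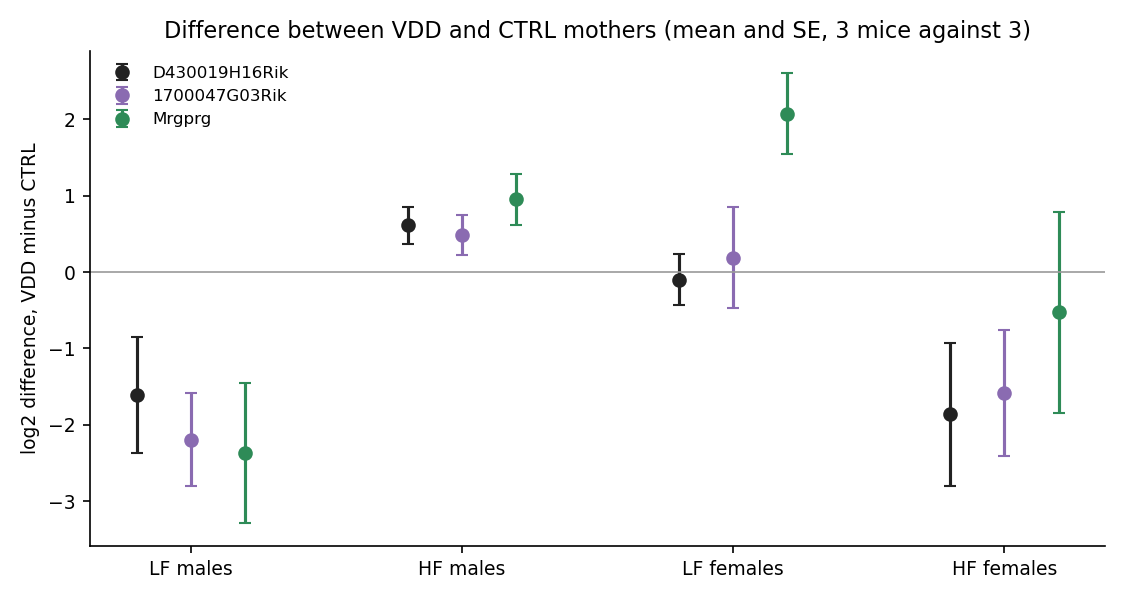
Log2 difference between VDD and CTRL mothers (VDD minus CTRL, mean and SE, 3 mice against 3) for the 3 genes in LF males, HF males, LF females and HF females. Mrgprg lies at -2.37 in LF males, 0.95 in HF males and 2.07 in LF females, and none of the 12 differences passed the thresholds.

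The genes most like each of the 3 across the 24 libraries were ranked by Pearson's r of log2 levels among 18398 genes. For D430019H16Rik these were Grid1, a delta glutamate receptor (r = 0.94), Adamts5, a protease of the extracellular matrix (0.94), the unannotated locus XLOC_021291 (0.93), Epb41l2, a membrane skeleton protein (0.93), and Ehd3, an endocytic recycling protein (0.93). Adamts5 went from 857 ± 97.5 normalized reads in VDD LF males to 4112 ± 398 in VDD HF males (SD, n = 3), and Grid1 from 0.66 ± 1.14 to 38.5 ± 3.47. The lowest r were those of Taf1d (-0.92) and Snhg1 (-0.91), a host gene of small nucleolar RNAs.

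For 1700047G03Rik the 5 highest were Tfpi2, a serine protease inhibitor of the extracellular matrix (0.95), Npr3 (0.95), Cavin1, a coat protein of caveolae in adipocytes (0.95), Anxa2, a membrane-binding annexin (0.95), and Syp, synaptophysin (0.94). Cavin1 had 12262 ± 3387 normalized reads in VDD LF males and 29416 ± 2362 in VDD HF males. The lowest were Rgs2, a brake on G protein signalling (-0.92), and again Snhg1 (-0.92). D430019H16Rik and 1700047G03Rik correlated with each other at r = 0.91, and within groups at 0.39.

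Mrgprg had no partner as close. Its 5 highest were Eif1a (0.79) and Eif2s1 (0.69), both initiation factors of translation, with Eapp (0.70), Plekha3 (0.69) and Ifi205 (0.66), an interferon-induced gene, and its lowest were Abcd4 (-0.77) and Ampd2 (-0.74). Its r with D430019H16Rik was -0.07 and with 1700047G03Rik -0.06, so the gene did not follow the other two across the mice. With 24 points that share groups, and the highest and lowest of 18398 genes picked, these coefficients are descriptions only.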

How the data were processed

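RNA of retroperitoneal adipose tissue was sequenced for 24 mice, 3 in each of 8 groups. Per the study's methods the authors trimmed paired-end reads with Sickle, aligned them with STAR 2.7.0d keeping reads with 1 position, added loci assembled with Cufflinks 2.2.1 to GENCODE, counted reads with featureCounts 1.6.1 and compared groups with DESeq2. The submitters' processing notes name build mm10. The authors deposited 8 tables, 1 per comparison, with log2(normalized reads + 1) for 6 libraries and 56899 entries (4 with duplicated names were left out). Their fold changes and p-values in the same tables were not used. Reads with several positions were lost before deposition, which lowers near-identical genes.

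The deposited log2 values were fitted per table with limma 3.58.1 (lmFit, eBayes with trend, R 4.3.3), on genes that reached 10 normalized reads in 3 or more of 6 libraries. A call needed an adjusted p (Benjamini-Hochberg, all genes tested) under 0.01 and a fold above 1.5 or below 0.66. Undoing the log2 gave whole reads within 0.02 for 100% of values, and the 24 libraries were scaled together by the median of ratios for levels, correlations and 3 contrasts (8 group means, pseudocount 1). SE are those of the fits. The sex contrasts under HF and under LF were planned as tests and are given without a p, since their males served to choose the genes. The 3 genes and all lists were chosen with earlier results of these data known. Named besides them are the 2 annotated genes on either side, the Mas-related family, and the 5 genes with the highest and 2 with the lowest r. Of the neighbours, Gm2721 and Gm2559 were at 0 in 22 and 24 libraries and are not described further. Tunar, Bdkrb2 and Gm24074 were added after the annotation was seen. Coordinates are GENCODE M21, promoters RefSeq GRCm38.p6. Fits were tested on simulated data with 200 genes changed 4-fold, at 1 fixed spread and without genes of low level. Several groups of the 3 genes had a wider spread or few reads, and the simulation does not cover those. Where no source says more than separate mice, p-values measure the spread between these mice. Depth was 13346779 to 18484346 reads on genes (median 15933506), so a level of 5 normalized reads rests on about as many reads. Alternatives were a pseudocount of 10, scaling by the trimmed mean of M-values, limma-voom, no filter, 1 fit over 24 libraries, each library left out and, added after seeing the data, leaving out the libraries named renal.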

Additional observations from a re-analysis of the deposited data

Results flagged for a closer look

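Mrgprg had maternal differences of opposite direction in groups that share a diet or a sex. In LF males every mouse of VDD mothers lay below every mouse of CTRL mothers (log2 difference -2.37, or -1.24 without mouse 2078), while in HF males every mouse of VDD mothers lay above (0.95). Among LF females every mouse of VDD mothers was also higher (2.07), against -2.37 in LF males. These pairs were picked out because all mice of one comparison moved one way and all mice of the other the opposite way. The difference between the comparisons was not tested, and none of the 3 maternal differences passed the thresholds. The CTRL LF males, whose Mrgprg level was the highest, also served to choose the gene.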

How the results depend on the processing

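No paired analysis was possible because the groups hold different mice and the sources used here do not give litter. The deposited columns carry mouse numbers and not the replicate numbers of the labels, so they were matched to groups only. The planned negative binomial test on recovered reads was not run, so calls rest on limma and limma-voom. With a pseudocount of 10 the HF difference of Mrgprg in CTRL males was -2.82 and that of 1700047G03Rik in VDD males 5.13, and Mrgprg changed sign for the maternal average (-0.0422) and for sex under HF (0.14). Without the libraries named renal the HF difference of Mrgprg in VDD males was 0.24, and 1700047G03Rik fell under the filter in 3 comparisons. All other values for the 3 genes kept their direction and their side of the thresholds under the trimmed mean of M-values, limma-voom, no filter and the fit over 24 libraries.

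Leaving out 1 mouse at a time changed signs for Mrgprg in the HF difference of VDD males (-1.25 to 0.69), the maternal difference of HF females (-1.82 to 0.46), the maternal average (-0.29 to 0.31) and sex under HF (-0.52 to 0.55), for D430019H16Rik in the maternal difference of LF females (-0.34 to 0.12) and sex under LF (-0.53 to 0.23), and for 1700047G03Rik in the maternal difference of LF females (-0.44 to 0.71). The sex difference of D430019H16Rik under HF kept its sign (-3.00 to -2.02), and that difference is not tested here. Counts over all genes were less stable: 0 to 142 for the maternal difference of HF males, where 142 came without mouse 2308, 0 to 195 against 19 for the maternal average, 237 to 551 against 410 for sex under LF (183 with limma-voom) and 361 to 932 against 643 for sex under HF. The fit over 24 libraries called 5 genes for the maternal difference of HF females and 2 for that of LF males. The causes were not tested. The lowest single values rest on 3 to 5 reads, so their counting error is large.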
